A study of Homo sapiens with 6 samples.

Results

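The cytosolic heat shock chaperones HSP90AA1, HSP90AB1, HSPA8, HSPA1A, HSPA1B, HSPH1, DNAJB1, DNAJA1 and HSPB1, with the transcription factor HSF1 that drives their stress response, were followed in PC-3 cells given trans-Gnetin H (TGH). They were chosen by gene symbol, and all 10 had 1 row each among the 18780 genes of the deposited table. PC-3 is an established human prostate cancer cell line. Cells were grown in DMEM/F12 medium with fetal bovine serum and received either 2.5 µM TGH, which is built from resveratrol units as a trimer, for 24 h (n = 3 libraries) or the solvent dimethyl sulfoxide (DMSO) as the control (n = 3 libraries). By its title the study concerns glucose deprivation of prostate cancer cells by this compound. The labels do not say whether the libraries of a group came from separate cultures, so p-values measure the spread between these libraries, which may be technical.

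HSP90 and HSP70 proteins bind unfolded or unstable client proteins and release them in cycles of ATP hydrolysis. J-domain proteins deliver clients to HSP70, nucleotide exchange factors reset it, and small heat shock proteins hold unfolding proteins without using ATP. HSF1 is kept inactive by chaperones in unstressed cells. When unfolded proteins occupy those chaperones it assembles into trimers and binds heat shock elements, inverted repeats of the unit GAA, in the promoters of chaperone genes. Its activity is known to be set largely by this assembly and by phosphorylation rather than by the amount of its mRNA. Cancer cells commonly depend on high levels of HSP90 and HSP70.

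Values are in TPM, a unit that scales reads by transcript length and library total, so that levels of different genes can be compared. TPM keeps no read number, and the depth of the libraries is not known. Between 1342 and 1530 genes were listed at 0 in the TGH libraries and in DMSO replicate 3, against 3074 and 3185 in DMSO replicates 1 and 2. Those 2 control libraries stand apart in this respect, so calls and counts below that change when DMSO replicate 3 serves as the only control are given with that value for the 10 genes and for the gene lists refitted that way. Epithelial markers were abundant, with means of 604 TPM for KRT8 and 578 TPM for KRT18 in the controls (424 and 421 TPM after TGH). The other epithelial markers moved less, EPCAM from 181 to 166 TPM and CDH1 from 49.6 to 51.9 TPM. The prostate marker KLK3 was not analysed here. Of 11 markers of immune, endothelial and fibroblast cells 8 were at or under 0.299 TPM in every library, the defining PTPRC, PECAM1, CDH5 and COL1A2 among them. The exceptions were the lysosomal protein CD68 (21.2 in DMSO and 47.4 TPM with TGH), COL1A1 (3.39 and 2.75 TPM) and LUM (0.648 and 0.697 TPM). The part of differences in these markers in the chaperone results was not tested.

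The letters that HSF1 is known to read were looked for in the promoters of the chaperones, because 8 of these genes fell together. A motif of 3 units, GAANNTTCNNGAA on either strand (TTCNNGAANNTTC when read from the other), was searched in RefSeq windows of 250 bases before to 50 bases after annotated transcript starts (GRCh38.p14). Of the 10 genes all but HSF1 had a window. The motif lay in a window of 4 of these 9 genes, and in 0.523% of the 8794 tested genes that had one. Heat shock chaperones are genes whose promoters HSF1 is known to bind, so this contrast does not bear on the change with TGH. The stretches of 30 bases around it are shown 5′ to 3′ on the gene's strand with the motif in capitals.
HSP90AA1: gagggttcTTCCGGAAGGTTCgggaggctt
HSP90AB1, first site: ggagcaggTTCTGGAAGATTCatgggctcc
HSP90AB1, second site: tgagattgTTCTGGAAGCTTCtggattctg
HSPA8, distal site: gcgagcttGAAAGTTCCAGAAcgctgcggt
HSPA8, proximal site: cgggccccTTCTGGAAGGTTCtaagatagg
DNAJA1: gccgggcgGAACTTTCCAGAAcgctcggtg

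The HSP90AA1 stretch lies at chr14:102087111-102087140 on the minus strand, at positions -96 to -67 from a start counted as 0, within 2 of 2 coding transcripts of the gene in the GENCODE basic annotation and in an exon of 1. Both HSP90AB1 stretches, at chr6:44247770-44247799 and chr6:44247823-44247852 on the plus strand, lie inside 3 of 4 coding transcripts and in no exon, that is, in an intron of the longer forms. For HSPA8 the distal stretch at chr11:123062345-123062374 (minus strand) precedes all 7 coding transcripts, and the proximal one at chr11:123062170-123062199 overlaps an exon of 2 of them. The DNAJA1 stretch at chr9:33025268-33025297 (plus strand) spans its start and lies in the first exon.

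HSPA1A, HSPA1B, DNAJB1 and HSPB1 had no match to the 3 units, which says only that these letters are not in those windows. They held shorter matches of 2 units, GAANNTTC or TTCNNGAA, which are also contained in the longer motif and occur in 13.5% of all 35116 windows. For HSPH1 neither motif was found. The 2-unit stretches of the HSPA1 pair, which differ little, and an adjacent pair of DNAJB1 stretches are shown in the same way.
HSPA1A: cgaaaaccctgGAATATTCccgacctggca
HSPA1B: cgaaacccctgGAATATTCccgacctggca
DNAJB1, distal site: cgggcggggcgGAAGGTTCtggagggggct
DNAJB1, proximal site: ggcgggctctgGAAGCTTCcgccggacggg

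The HSPA1A stretch lies at chr6:31815426-31815455 and the HSPA1B stretch at chr6:31827622-31827651, both on the plus strand and outside every coding transcript of their gene. The DNAJB1 stretches lie at chr19:14518456-14518485 and chr19:14518426-14518455 on the minus strand, inside 1 of 2 coding transcripts and in no exon.

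Most of these chaperone transcripts were lower with TGH, and HSF1 mRNA was slightly higher. Of the 10 genes 8 were called lower, 1 was called higher (HSF1) and 1 was not called (HSPB1) by limma with Benjamini-Hochberg adjustment over all 12018 genes tested, at an adjusted p under 0.05. Over all genes tested 26.3% were called lower and 28.9% higher, 55.2% in all. The groups did not overlap in 8 members that were lower and 1 that was higher, where 30.8% of all genes had every TGH library below every DMSO library, 33.6% had the reverse, and 64.4% either. The median difference of the 10 genes was -0.38 on the log2(TPM + 1) scale, against 0.02 over all genes tested. In cell cultures measured in bulk, fewer cells expressing a gene and less RNA per cell cannot be told apart.

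**Figure D1:**
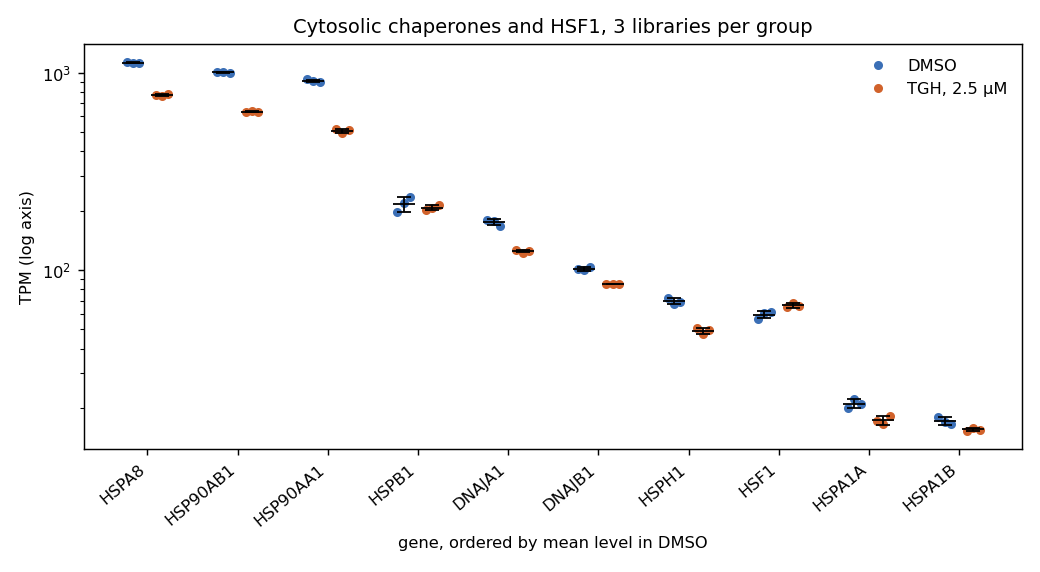
TPM (log axis) of the 10 genes in each library, ordered by mean level in DMSO; points are libraries, bars the mean and SD of 3. HSPA8, HSP90AB1 and HSP90AA1 show the widest gaps between the groups, HSPB1 overlaps, and HSF1 alone is higher with TGH.

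HSP90AA1 encodes HSP90 alpha, the more inducible of the cytosolic HSP90 proteins. It was at 923, 902 and 895 TPM in DMSO replicates 1 to 3 and at 516, 496 and 509 TPM in TGH replicates 1 to 3. Every TGH library was far below every control. The level fell from 907 ± 14.7 to 507 ± 10.1 TPM (SD, n = 3 each), a difference of -0.84 on the log2(TPM + 1) scale (SE 0.021, limma adjusted p = 1.2e-06). HSP90AB1, the constitutive HSP90 beta, was at 1007, 1012 and 997 TPM in DMSO and at 634, 637 and 634 TPM with TGH. The libraries of a group lay close together and the groups were far apart, with a difference of -0.66 (SE 0.013, limma adjusted p = 6.0e-07).

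The balance between the alpha and beta forms was then compared. The ratio of HSP90AA1 to HSP90AB1 TPM within a library was 0.917, 0.892 and 0.898 in DMSO and 0.814, 0.780 and 0.803 with TGH. All TGH ratios were below all control ratios, with means of 0.902 ± 0.013 and 0.799 ± 0.017. A two-sided exact permutation test of the log2 ratios gave p = 0.1, the smallest that 3 libraries against 3 allow, and the adjusted p over the 5 ratios examined was also 0.1. Between 17.5% (HSP90AA1) and 18.8% (HSP90AB1) of the stretches of 50 bases in their longest coding transcripts also occur in transcripts of other genes, mostly processed copies such as HSP90AA2P and HSP90AB3P. The counting method used for the table is not given, so how such reads were assigned is not known.

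HSPA8 encodes HSC70, the constitutive HSP70 of the cytosol, and was the most abundant of the 10 transcripts in both groups. It was at 1126, 1121 and 1123 TPM in DMSO and at 768, 762 and 777 TPM with TGH. The control libraries hardly differed from each other, and each TGH library lay far below them. The difference was -0.55 (SE 0.013, limma adjusted p = 1.2e-06), a level lower by 31.6% in TPM. Of its 50-base stretches 15.4% also occur in transcripts of 10 other genes.

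The stress-inducible HSP70 genes HSPA1A and HSPA1B were expressed at a low level and differed less. HSPA1A was at 20.0, 22.2 and 20.9 TPM in DMSO and at 17.1, 16.6 and 18.3 TPM with TGH, without overlap. The difference was -0.27 (SE 0.052, limma adjusted p = 0.00494). HSPA1B was at 18.0, 17.0 and 16.6 TPM in DMSO and at 15.3, 15.9 and 15.5 TPM with TGH. Its highest TGH library came close to its lowest control, and the difference was -0.13 (SE 0.039, limma adjusted p = 0.0273). That call was lost without any one of the TGH libraries (adjusted p from 0.0539 to 0.0882) and with DMSO replicate 3 as the only control (-0.08, adjusted p = 0.166). The pair encode HSP70 proteins that are nearly the same. Of the 50-base stretches of HSPA1A 72.6% also occur in HSPA1B, and 71.4% the other way round, so the split between them is uncertain. Their combined TPM relative to HSPA8 was 0.0337, 0.0349 and 0.0334 in DMSO and 0.0422, 0.0426 and 0.0436 with TGH, higher in every TGH library (two-sided exact permutation p = 0.1, adjusted p = 0.1; this ratio was chosen after the values were seen).

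HSPH1, or HSP105, belongs to the HSP110 family, which acts as a nucleotide exchange factor for HSP70. It was at 71.9, 67.3 and 69.2 TPM in DMSO and at 50.8, 47.3 and 49.5 TPM with TGH. The groups were separated by a wide gap, with a difference of -0.49 (SE 0.037, limma adjusted p = 8.2e-05). None of its 50-base stretches occurs in another gene of the annotation.

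The J-domain proteins DNAJA1 and DNAJB1 start the HSP70 cycle, and DNAJB1 (HSP40) is the one known for strong heat induction. DNAJA1 was at 179, 177 and 168 TPM in DMSO and at 126, 122 and 125 TPM with TGH. The difference was -0.49 (SE 0.029, limma adjusted p = 3.1e-05). DNAJB1 was at 101, 99.6 and 104 TPM in DMSO and at 84.8, 85.4 and 84.5 TPM with TGH. The difference was -0.25 (SE 0.023, limma adjusted p = 1.7e-04). Neither gene overlapped between the groups. The ratio of DNAJB1 to DNAJA1 was 0.563, 0.562 and 0.616 in DMSO and 0.672, 0.698 and 0.677 with TGH, again without overlap (two-sided exact permutation p = 0.1, adjusted p = 0.1). This ratio was also chosen after the values were seen. Against DMSO replicate 3 alone its log2 difference was 0.147 instead of 0.234.

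HSPB1, or HSP27, is a small heat shock protein that holds unfolding proteins in large oligomers. It was at 196, 219 and 234 TPM in DMSO and at 202, 207 and 213 TPM with TGH. The TGH libraries lay within the range of the controls, which spread more widely for this gene than for DNAJA1 or DNAJB1. The difference was -0.06 with a 95% interval from -0.21 to 0.09 (limma adjusted p = 0.447), so a modest fall or a small rise are both within the error. It was called lower without DMSO replicate 1, which was its lowest control (-0.13, adjusted p = 0.032), and against DMSO replicate 3 alone, its highest (-0.18, adjusted p = 0.016).

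HSF1 was at 56.7, 60.6 and 61.0 TPM in DMSO and at 64.9, 68.1 and 65.6 TPM with TGH. Every TGH library was above every control, but the gap was small. The mean went from 59.4 ± 2.41 to 66.2 ± 1.69 TPM, a difference of 0.15 (SE 0.037, 95% interval from 0.07 to 0.24, limma adjusted p = 0.0112). With DMSO replicate 3 as the only control it was 0.12 and not called (adjusted p = 0.0561). Its direction was up under median scaling, quantile normalization and rescaling of the listed genes to an equal total.

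By level the 10 genes fell into the same order in both groups except for 1 exchange. In DMSO the order was HSPA8, HSP90AB1, HSP90AA1, HSPB1, DNAJA1, DNAJB1, HSPH1, HSF1, HSPA1A and HSPA1B, and the ranges of neighbours did not overlap. With TGH, HSF1 (66.2 TPM) stood above HSPH1 (49.2 TPM), and the ranges of neighbours again did not overlap. HSPA8, HSP90AB1 and HSP90AA1 ranked 57, 67 and 82 among all genes tested by mean TPM in DMSO, and 99, 113 and 144 with TGH.

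The 9 chaperones together summed to 3643, 3636 and 3627 TPM in DMSO and to 2414, 2389 and 2426 TPM with TGH. That is 0.717% of the listed TPM in DMSO and 0.469% with TGH, a sum lower by 33.7%. HSP90AA1, HSP90AB1 and HSPA8 made up 83.5% of the control sum and 91.7% of the change. In TPM lost, HSP90AA1 (-400 TPM) ranked 5, HSP90AB1 (-370 TPM) ranked 8 and HSPA8 (-354 TPM) ranked 9 among the 12018 genes. Of 844 abundant genes, with means from 100 TPM upwards, 10 differed by more than HSP90AA1 on the log2 scale in the downward direction, and 42 by more than HSPA8.

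**Figure D2:**
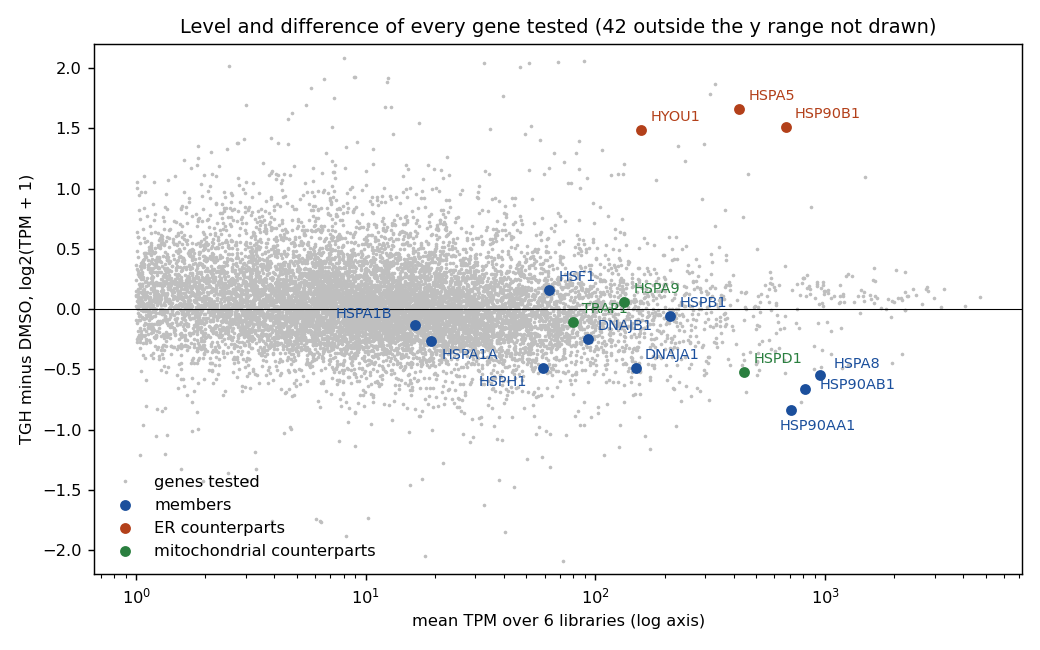
Difference between TGH and DMSO (log2(TPM + 1)) against mean TPM (log axis) for the genes tested, grey, with 42 beyond ±2.2 not drawn. HSP90AA1, HSP90AB1 and HSPA8 lie at the lower right among abundant genes, the ER chaperones HSPA5, HSP90B1 and HYOU1 lie high above 0, and HSF1 and HSPB1 lie near 0.

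Most transcripts of proteins that work with HSP90 were lower as well. Of 15 co-chaperones tested 9 were called lower (8 with DMSO replicate 3 as the only control) and 2 higher, with a median of -0.30 on the log2 scale. For comparison, 26.3% of all genes tested were called lower and 28.9% higher in the fit of all 6 libraries. CHORDC1, an HSP90 partner with CHORD domains, was at 32.1, 33.3 and 30 TPM in DMSO and at 19.2, 18.9 and 18.0 TPM with TGH. The difference was -0.74 (SE 0.046, limma adjusted p = 3.8e-05). PTGES3 (p23), which stabilises the closed HSP90 dimer, fell by 0.61, FKBP4, an immunophilin of steroid receptor complexes, by 0.56, and STIP1 (HOP), which bridges HSP70 and HSP90, by 0.49 on the same scale (limma adjusted p at or below 1.6e-05). AHSA1, the activator of the HSP90 ATPase, fell by 0.38, whereas its relative AHSA2 rose by 0.74, from 5.65 to 10.1 TPM (limma adjusted p = 0.00116 and 8.3e-05). Whether the AHSA2 transcript yields a working protein was not examined. SUGT1, an HSP90 partner at kinetochores and in immune receptors, rose by 0.24 (limma adjusted p = 0.00224). CHORDC1, AHSA1, AHSA2 and SUGT1 were named after their values were seen.

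Of the further cytosolic chaperone-system genes tested, 31 had a window, and those without one were not searched. The 3-unit motif lay in a window of 3 of the 31 (9.68%, against 0.523% of all tested genes with a window), CHORDC1, DNAJB6 and HSPA6. This contrast, too, does not bear on the change with TGH. The CHORDC1 stretch at chr11:90223083-90223112 (minus strand) holds overlapping copies that cover most of the 30 bases. The single HSPA6 copy is at chr1:161524458-161524487 (plus strand).
CHORDC1: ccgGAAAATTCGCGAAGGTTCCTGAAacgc
HSPA6: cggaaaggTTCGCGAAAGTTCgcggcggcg

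HSPA6 (HSP70B') is an HSP70 gene absent from rodents that is nearly silent without stress, and its values went the other way. It was at 0.475, 0.401 and 0.412 TPM in DMSO and at 1.87, 2.03 and 2.01 TPM with TGH. All TGH libraries were well above the controls, yet still at a low level. The difference was 1.06 on the log2(TPM + 1) scale, which the offset of 1 makes smaller than the change in TPM. The gene passed the minimum of 1 TPM only through the TGH libraries, so it had to differ to be tested, and its difference is given as a description without a p. Of its 50-base stretches 45.5% also occur in the HSPA7 pseudogene, which was at or under 0.0474 TPM in every library.

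The rest of the cytosolic HSP70 system was mixed. Of 5 other HSP70 and HSP110 genes tested 3 were lower, and HSPA6, with the limit just given, was the 1 counted as higher. HSPA14, a ribosome-associated HSP70, fell by 0.40 and HSPA4 (APG-2), a relative of HSPH1, by 0.34 on the log2 scale (limma adjusted p = 3.6e-04 and 1.3e-04). HSPA1L was under the minimum level and not tested. Of 7 J-domain proteins 2 were lower, led by DNAJC7, which binds both HSP70 and HSP90 (-0.41), and 2 were higher, led by DNAJB2 (0.42), known for routing HSP70 clients to the proteasome (limma adjusted p = 4.4e-05 and 5.1e-04). These shares of the J-domain list are near those of all genes tested, 26.3% lower and 28.9% higher, and are no result about the list. Of 8 exchange factors and partners of HSP70 5 were lower and 0 higher, with small differences. BAG3, an inducible partner of HSP70 and small heat shock proteins, had -0.26, BAG2 -0.20 and ST13 (HIP) -0.14 (limma adjusted p from 0.00183 to 0.00886).

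**Figure D3:**
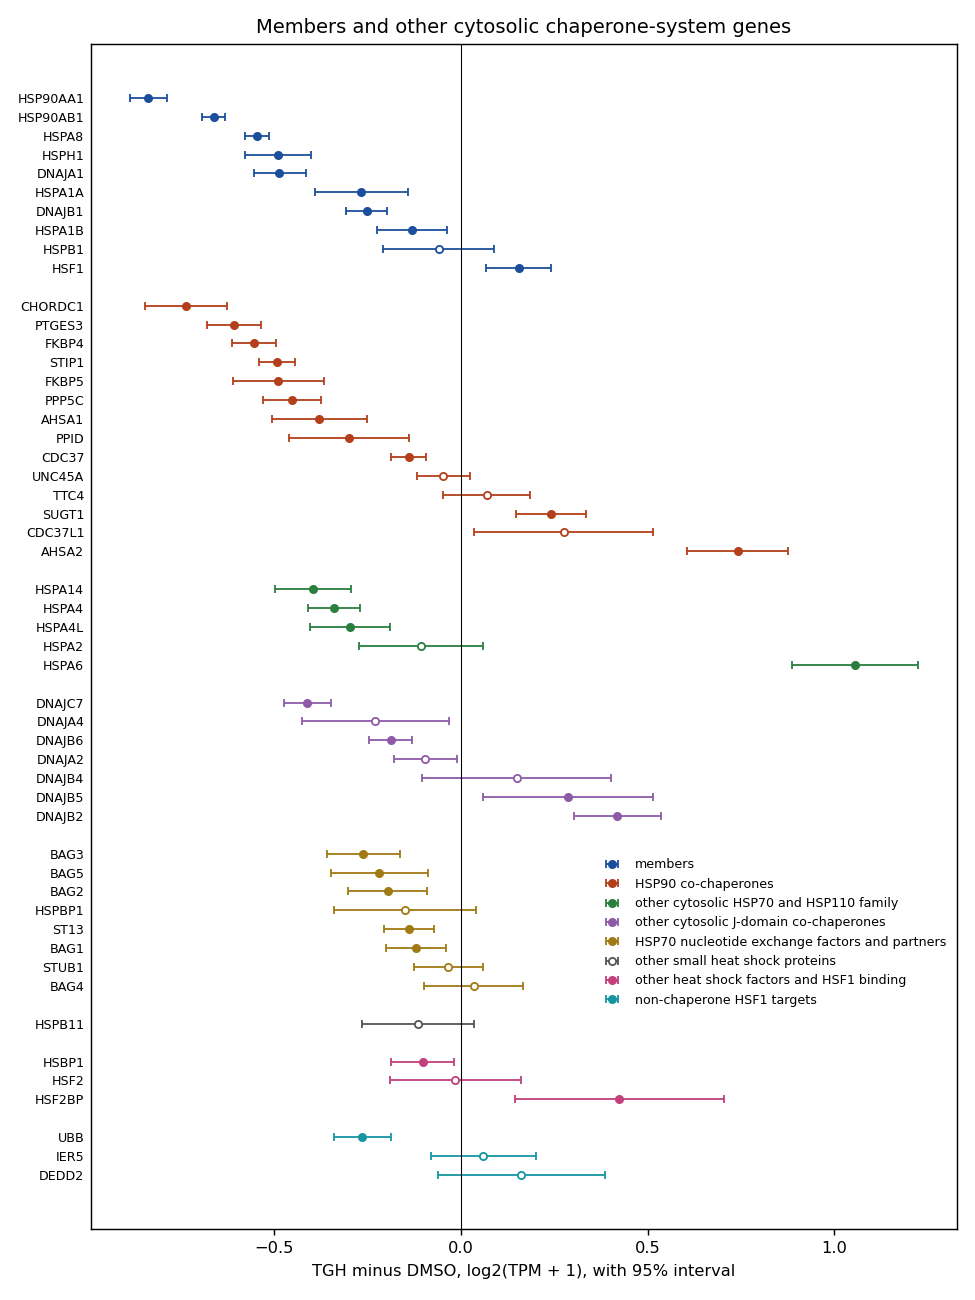
Difference between TGH and DMSO (log2(TPM + 1), with 95% interval) of the 10 members and of other cytosolic chaperone-system genes, grouped by role; filled points were called at an adjusted p under 0.05 and open points were not. Most called genes lie left of 0, and HSPA6, which passed the minimum level only through TGH libraries, and AHSA2 lie farthest to the right.

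Other small heat shock proteins were almost absent from these cells. Of 9 listed, HSPB11 alone passed the minimum level (67.7 and 62.3 TPM in DMSO and TGH, limma adjusted p = 0.158). Whether HSPB11 works as a small heat shock protein was not examined. HSPB9 was not analysed here, and the other 7 were at or under 0.573 TPM in every library. CRYAB, alpha B-crystallin, accounted for that highest value, with 0, 0 and 0.0877 TPM in DMSO and 0.368, 0.573 and 0.458 TPM with TGH. Both zeros are in the control libraries with the most genes listed at 0, and no fold is given.

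Among heat shock factors and their binders, HSF2 was at 4.93 and 4.86 TPM with a difference of -0.01 and a 95% interval from -0.19 to 0.16 (limma adjusted p = 0.875). HSBP1, which binds HSF1 trimers and dampens them, had -0.10 (limma adjusted p = 0.0449). HSF2BP, a binder of HSF2, had 0.42 (limma adjusted p = 0.0204), with mean levels of 1.45 (DMSO) and 2.29 TPM (TGH). HSF4 and HSF5 were under the minimum level. Among HSF1 targets that are not chaperones, the polyubiquitin gene UBB had -0.26 (limma adjusted p = 6.2e-04), and DEDD2 and IER5 were not called. Counted over the 7 cytosolic companion lists, 22 of 43 genes tested were lower (19 with DMSO replicate 3 as the only control) and 6 higher, HSPA6 among the latter, and the median was -0.14. Over all genes tested 26.3% were lower and 28.9% higher in the fit of all 6 libraries.

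Chaperones of the same families in other compartments differed in direction. The 7 ER counterparts were all called higher, with a median of 1.49, and the mitochondrial ones had 4 lower (5 with DMSO replicate 3 as the only control) and 0 higher of 6, with a median of -0.12. Among all genes tested 26.3% were called lower and 28.9% higher in the fit of all 6 libraries. The mitochondrial count rested partly on small differences, such as -0.11 for TRAP1 (limma adjusted p = 0.0402). That count was 3 under quantile normalization, with no filter and with no variance trend. Leaving out DMSO replicate 2, DMSO replicate 3 or any single TGH library also gave 3. HSPA5, the HSP70 of the ER, relative to HSPA8 was 0.182, 0.182 and 0.178 in DMSO and 0.843, 0.834 and 0.827 with TGH. HSP90B1, the HSP90 of the ER, relative to HSP90AA1 plus HSP90AB1 was 0.184, 0.180 and 0.185 in DMSO and 0.886, 0.872 and 0.866 with TGH. In each family every TGH library was above every control, and the mean ratios were 4.62-fold and 4.78-fold higher (two-sided exact permutation p = 0.1 for either, adjusted p = 0.1). In mitochondria HSPD1 and its partner HSPE1, the chaperonin, fell by 0.53 and 0.46, while HSPA9, the mitochondrial HSP70, was at 131 and 136 TPM with a difference of 0.06 (limma adjusted p = 0.08).

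**Figure D4:**
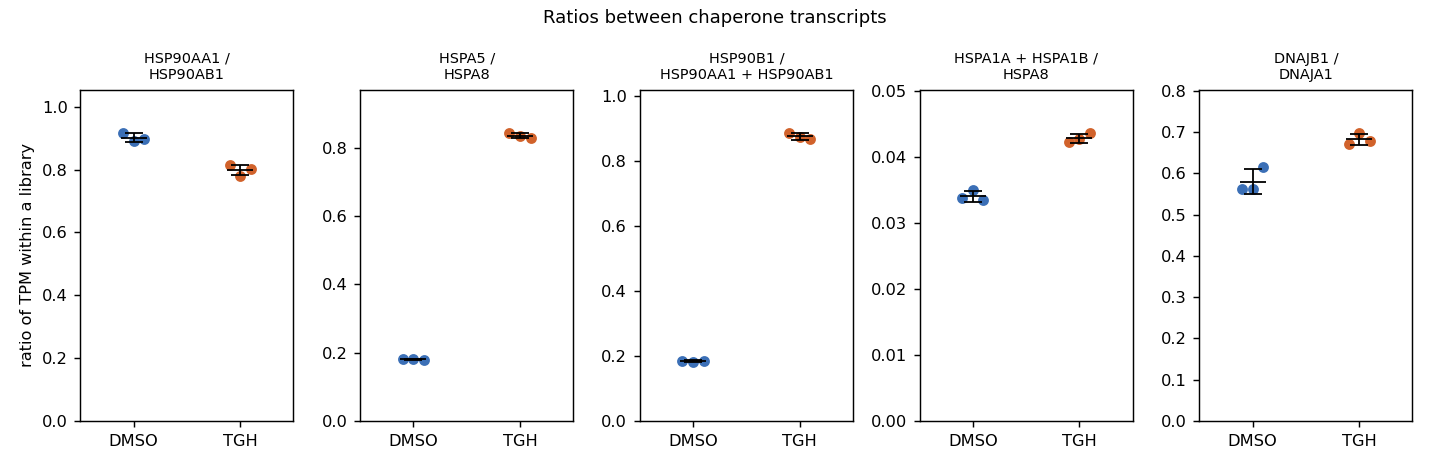
Ratios of TPM within each library (points), with the mean and SD of 3 libraries per group; each panel starts at 0 and has its own scale. The ratios of ER to cytosolic HSP70 and HSP90 go from 0.18 and 0.183 to 0.835 and 0.875, and the HSP90AA1 to HSP90AB1 ratio goes from 0.902 to 0.799.

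The members with the 3-unit motif shown above, HSP90AA1, HSP90AB1, HSPA8 and DNAJA1, had differences of -0.84, -0.66, -0.55 and -0.49. Those with a window but no such match, HSPH1, HSPA1A, DNAJB1, HSPA1B and HSPB1, had -0.49, -0.27, -0.25, -0.13 and -0.06. These are 9 genes described after their values were known, and the sets overlap at DNAJA1 and HSPH1. Outside the members, 42 tested genes had the motif in a window, of which 14 were lower (33.3%) and 12 higher, with a median of -0.05. Of the 8743 other genes with a window but without the motif 27.9% were lower. A share this near the background is no result about genes with the motif.

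The profile of HSP90AA1 over the 6 libraries, each gene centred on its own mean, was most like those of RBM12, MCM7, HMGB3, CCNF and DLGAP5. The root-mean-square difference of the log2 values was between 0.011 (RBM12) and 0.027 (DLGAP5). Because these genes were picked by that distance, their own differences between the groups had to lie near that of HSP90AA1. Those differences were between -0.85 (CCNF) and -0.82, next to -0.84 for HSP90AA1. Their levels in DMSO went from 11.8 TPM (CCNF) to 131 TPM (MCM7).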

How the data were processed

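The authors deposited 1 table of log2(TPM + 1) values, holding a row for each gene symbol and a column for each library. Values start at 0, and the offset of 1 was taken from that. Per the labels' protocols, ribosomal RNA was removed from total RNA and a directional library kit was used. Per the submitters' processing notes the genome build was hg19. An aligner, counter or annotation was not given in the sources used here. After undoing the log, each library's TPM added up to between 502380 and 518870; a full TPM table would add up to 1000000.

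The filter required 1 TPM or more on average across the 6 libraries, which left 12018 genes. Their log2 values were compared with limma 3.58.1 in R 4.3.3 (moderated variances with a trend, two-sided, Benjamini-Hochberg adjustment over all genes kept). This step was also run on simulated data with far fewer changed genes than were called here, so that run does not vouch for these calls. Ratios of TPM within libraries were compared by exact permutation. The members, gene lists, tests and rules were chosen with earlier results of these data known. The genes named are mainly the 10 members, up to 3 of each companion list with the smallest p, and the 5 nearest profiles to HSP90AA1. Others, such as CHORDC1, AHSA1, AHSA2 and SUGT1, were named outside this rule after their values were seen. Some genes of the lists are counted but not reported by name or drawn. Promoter windows are from RefSeq (GRCh38.p14), and shared stretches and exons from GENCODE release 29. The alternatives were other pseudocounts, filters, scalings, variance models, a replicate block, and fits that omit a library.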

Additional observations from a re-analysis of the deposited data

How the results depend on the processing

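Over 17 alternatives HSP90AA1, HSP90AB1, HSPA8, HSPA1A, HSPH1, DNAJB1 and DNAJA1 were called lower in each, with differences on the log2 scale from -0.87 to -0.82 for HSP90AA1 and from -0.29 to -0.23 for DNAJB1. The call of HSPA1B was lost under 5 and that of HSF1 under 1, and HSPB1 gained one under 2. With DMSO replicate 3 as the only control 0 members were called higher instead of 1. With a minimum of 5 TPM 3 cytosolic companion genes were called higher instead of 6, because fewer genes were tested. With the replicate number as a block 7 members were lower and 1 higher (HSPA1B, adjusted p = 0.0567 by limma, was not called), and 6231 genes were called instead of 6635. Deviations of same-numbered libraries from their group means correlated by 0.009, 0.054 and 0.228, and those of other pairs by -0.158 to 0.096. Only the 0.228 of replicate 3 was above the limit of 0.1 set for pairing. The numbers were not taken to pair the libraries, which these values do not settle. Leaving out 1 library gave between 7 and 9 members called lower. Under median scaling 3083 genes were higher and 3630 lower, against 3479 and 3156 as deposited. The counting error of low genes such as HSPA6 and CRYAB, which is large at few reads, cannot be estimated without a read depth.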
